A study of Mus musculus with 15 samples.

Results

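Oocytes in a growing follicle stay arrested in meiosis and stay alive through exchange with the granulosa cells around them, and 8 genes of that exchange are described here across ovaries of the 3 groups of the study. They are Nppc, Npr2, Gpr3, Pde3a, Gja1, Gja4, Kitl and Kit, chosen by name, and each was found once among the 24656 genes listed and was among the 17569 kept for testing (10 or more in 5 or more libraries). Polyadenylated RNA of single ovaries from 15 mice was sequenced. The mice were UM-HET3, a genetically mixed stock in which no 2 animals are alike. The groups, with 5 libraries each, were 12-month-old mice given canagliflozin from 6 to 12 months of age, controls of 12 months and controls of 6 months. Canagliflozin inhibits SGLT2, the kidney transporter that takes filtered glucose back into blood. All mice were assigned to a group at random at 6 months of age. The drug dose and the stage of the oestrous cycle were not given in the labels used here, and an extraction method is stated for both 12-month groups alone. Values are size-factor-normalised reads, that is, reads per gene divided by 1 factor per library.

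Granulosa cells make C-type natriuretic peptide from Nppc, and this peptide switches on NPR2, a receptor that is itself a guanylyl cyclase and makes cGMP. The cGMP passes through gap junctions into the oocyte, where it blocks the cAMP phosphodiesterase encoded by Pde3a, while the oocyte receptor encoded by Gpr3 keeps cAMP production on. High cAMP holds the oocyte at prophase of the first meiotic division until the surge of luteinising hormone. The junctions between granulosa cells are built mainly of connexin 43 (Gja1) and those between oocyte and granulosa of connexin 37 (Gja4). KIT ligand (Kitl) comes from granulosa cells and its receptor (Kit) sits on oocytes and theca cells, a pair needed for oocyte growth and follicle activation.

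Sequencing depth, as recovered from the table, ran from 8472205 to 13046600 reads in the canagliflozin libraries, from 11309530 to 13108281 in the 12-month controls and from 11750426 to 13629491 in the 6-month controls. Markers of the cell types concerned were present: 13 of 16 oocyte markers and 13 of 13 granulosa markers passed the filter. Summed oocyte markers ran from 1693 to 3482 in canagliflozin ovaries, from 2582 to 3933 in 12-month controls and from 2616 to 4316 in 6-month controls, and none of these markers was at 0 throughout a group. Canagliflozin replicates 2 and 4 stood apart, with oocyte scores (mean log2 of the 13 markers) of 6.56 and 6.44, while the other canagliflozin libraries had 7.38 to 7.52, the 12-month controls 7.02 to 7.63 and the 6-month controls 7.003 to 7.73. Calls of members that end without these libraries, and fold changes of Kitl, are given both ways. In whole ovaries, fewer cells of a type and less RNA per cell cannot be told apart.

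Between canagliflozin and control ovaries of 12 months, none of the 8 genes passed the test, where 0.00569% of all genes tested did (1 gene, limma with Benjamini-Hochberg adjustment under 0.05). At an unadjusted p under 0.05, 1 of the 8 stood out, as did 1616 of 17569 genes. That gene was Nppc, at 235 ± 81.9 in canagliflozin ovaries and 140 ± 34.7 in 12-month controls (mean ± SD, n = 5 each; log2 fold change 0.70, SE 0.28, limma adjusted p = 0.490). The other 7 had log2 fold changes between -0.38 for Kit and 0.17 for Gja4. Neither edgeR (adjusted p = 0.457 for Nppc) nor DESeq2 (adjusted p = 0.291) on the recovered reads called a member here. The groups overlapped for each of the 8, and 1.05% of all genes tested had groups that did not.

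Between control ovaries of 12 and of 6 months, Gja1 rose and the other 7 did not pass, against 12.4% of all genes tested that were called in either direction, 5.4% higher and 7.01% lower. Gja1 averaged 18297 ± 2621 at 12 months and 12620 ± 2073 at 6 months (0.54 on the log2 scale, SE 0.15, or 1.46-fold, with a limma adjusted p of 0.0227). Its junction partner Gja4 lay on the other side, at 212 ± 50.1 at 12 months and 280 ± 17.98 at 6 months (log2 fold change -0.43, SE 0.17), and did not pass over all genes (limma adjusted p = 0.110). Nppc had a log2 fold change of 0.58 (SE 0.28, limma adjusted p = 0.190).

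Set against 6-month controls, canagliflozin ovaries of 12 months differ in age and in drug together. Here Nppc and Gja1 rose and Kit fell, and the other 5 did not pass, while 28.4% of all genes tested were called, 13.5% higher and 14.9% lower. By limma, Nppc was 2.43-fold higher (1.28 on the log2 scale, SE 0.28, adjusted p = 0.00322) and Gja1 1.54-fold higher (0.62, SE 0.15, adjusted p = 0.00539). Kit was 0.585-fold (-0.77, SE 0.25, adjusted p = 0.0295), a call that ended without canagliflozin replicates 2 and 4 (adjusted p = 0.168). This comparison shares its libraries with the other comparisons, so the values are not independent of theirs.

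**Figure D1:**
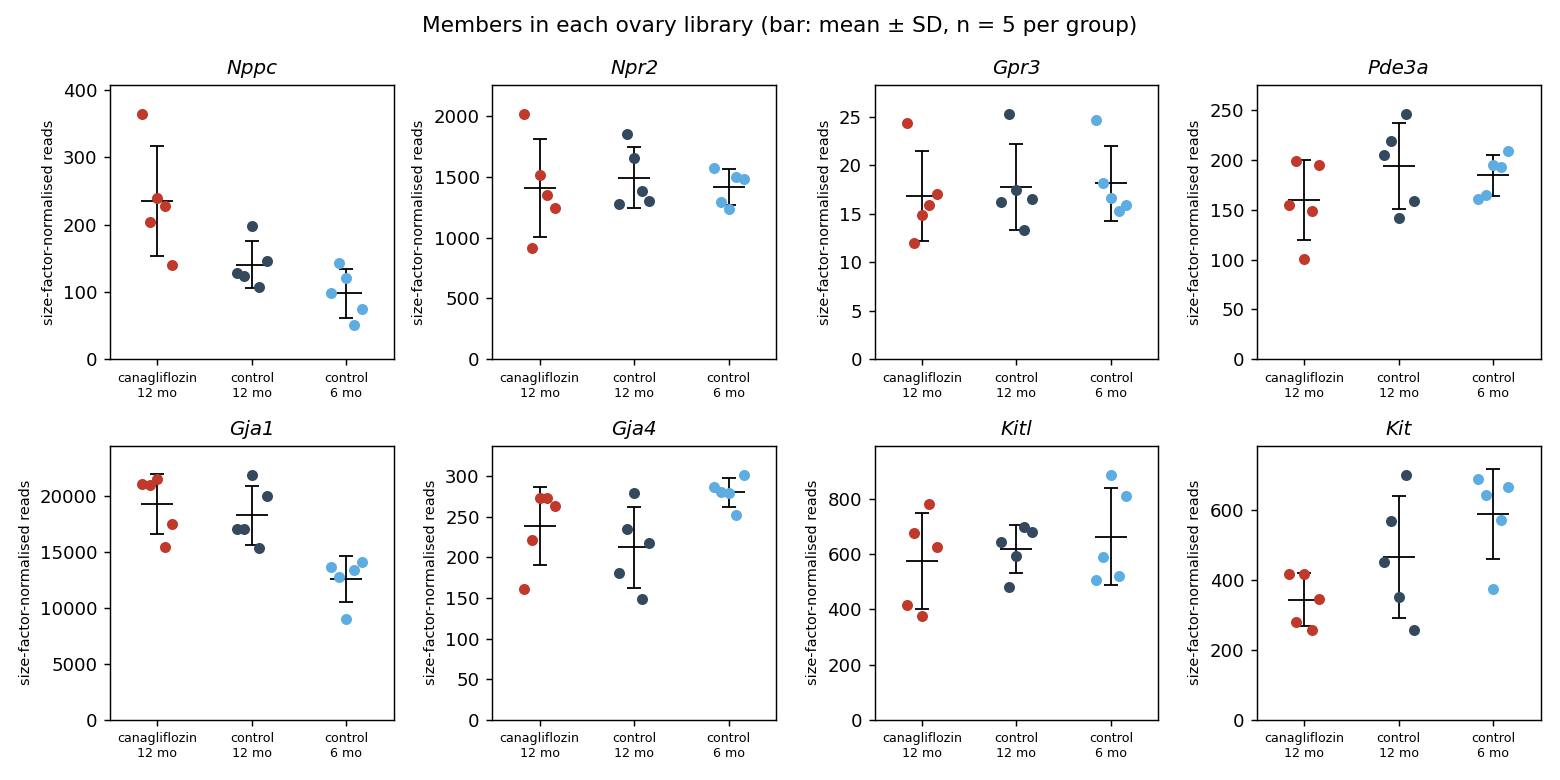
Size-factor-normalised reads (y axis) of each member in each ovary library, by group, with a bar for the mean ± SD of 5 libraries. All canagliflozin and 12-month control libraries lie above all 6-month controls for Gja1, while Npr2, Gpr3 and Kitl overlap in all groups.

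**Figure D2:**
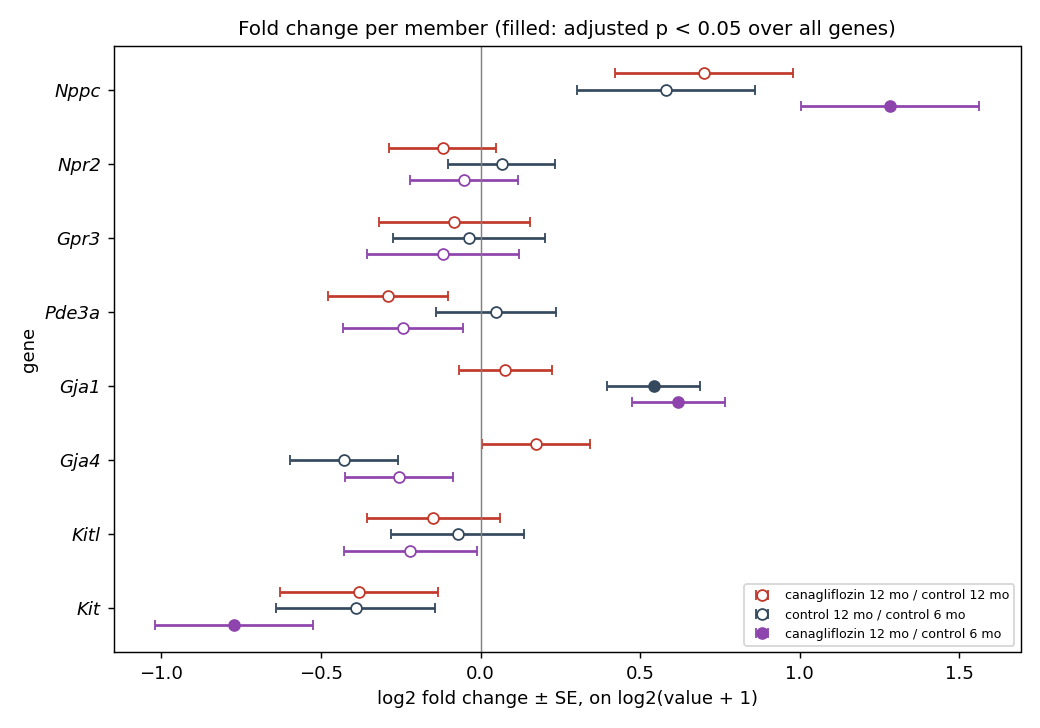
Log2 fold change with its SE on the log2(value + 1) scale (x axis) for each member in the 3 comparisons, with filled points for adjusted p under 0.05 over all genes tested. Filled points are Gja1 in both comparisons with 6-month controls and Nppc and Kit in that of canagliflozin with 6-month controls.

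Nppc (ENSMUSG00000026241), the ligand, measured (replicates 1 to 5, as in each gene after it) 364, 204, 239, 228 and 139 in the canagliflozin libraries, 128, 124, 197, 107 and 146 in the 12-month controls, and 98.6, 144, 121, 50.02 and 74.4 in the 6-month controls. Of the 5 canagliflozin libraries 4 were above every 12-month control and 4 above every 6-month control, with replicate 5 within both control ranges. At 12 months 2 of 5 control libraries were above every 6-month control. Its call against 6-month controls held in each of the 26 settings run, the main one included, with a log2 fold change from 1.07 to 1.45 when 1 library was left out and 1.32 (adjusted p = 0.0143) without canagliflozin replicates 2 and 4. Settings that leave out a library of the group not compared, here a 12-month control, cannot move the fold change and bear only on the spread. The 250 bases before the Nppc start are shown because this gene had the largest fold change of the 8 against 6-month controls. They come from RefSeq on GRCm38.p6 (chr1:86670574-86670823, minus strand), printed 5′ to 3′, with capitals for a CCAAT box (on the other strand), a GC box and a TATA box in that order.
Nppc: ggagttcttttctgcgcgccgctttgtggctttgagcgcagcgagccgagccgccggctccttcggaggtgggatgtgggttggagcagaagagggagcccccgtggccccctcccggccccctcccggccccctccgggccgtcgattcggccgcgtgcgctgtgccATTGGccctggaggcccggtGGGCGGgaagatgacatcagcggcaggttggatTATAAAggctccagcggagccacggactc
These matches began 82, 62 and 29 bases before the start. Motifs were searched on both strands, and no matches overlapped in the windows printed here. Over 32536 RefSeq windows of the same length, the TATA box letters TATAAA were in 12.3%. The GC box letters GGGCGG were in 33.0% and CCAAT in 33.8%. An AP-1 site, TGAGTCA, was in 4.5% and the cAMP response element TGACGTCA in 1.6%. The nuclear receptor half-site AGGTCA was in 14.0% and the FOXO site GTAAACA in 3.2%.

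Npr2 (ENSMUSG00000028469), the receptor of that peptide, measured 2016, 912, 1514, 1351 and 1247 in canagliflozin ovaries, 1274, 1856, 1660, 1385 and 1298 in 12-month controls, and 1575, 1291, 1239, 1502 and 1484 in 6-month controls. The groups overlapped, and the canagliflozin libraries spread most, with a coefficient of variation of 28.8% against 17.0% in 12-month controls and 10.2% in 6-month controls. Log2 fold changes were -0.12 (2 SE either side, -0.45 to 0.22) for canagliflozin against 12-month controls, 0.07 (-0.27 to 0.40) for 12 against 6 months and -0.05 (-0.39 to 0.28) for canagliflozin against 6-month controls. Changes within these bounds were not detectable with 5 libraries a group.

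Ligand and receptor were set against each other in the same library as log2 of Nppc minus log2 of Npr2. This ratio averaged -2.60 ± 0.36 in canagliflozin ovaries, -3.42 ± 0.36 in 12-month controls and -3.93 ± 0.70 in 6-month controls. Against 6-month controls the canagliflozin libraries did not overlap (difference 1.33, exact two-sided permutation p = 0.00794, adjusted p = 0.0317 over 4 ratios in 3 comparisons). This p is the smallest that 252 arrangements of 5 against 5 can give. That call ended without canagliflozin replicate 1 or 2 (adjusted p = 0.119) or 3 or 4 (0.0635) and without 6-month control replicate 4 or 5 (0.0635). In those tests the groups still did not overlap. With all libraries, 18.5% of single genes tested did not overlap between these groups, and no such share was taken for ratios. The difference ran from 1.099 without 6-month control replicate 4 to 1.35 without canagliflozin replicate 3. With 4 libraries against 5 there are fewer arrangements than 252, so that p moves in coarser steps. Against 12-month controls 4 of 5 canagliflozin libraries were above every control (difference 0.82, exact p = 0.0238, adjusted p = 0.0714). Without canagliflozin replicate 5 the difference was 0.96 (exact test, adjusted p = 0.0317). That library had the lowest ratio of its group, so that leaving it out made a larger difference certain. Leaving out any other library gave no call here. Between 12-month and 6-month controls the difference was 0.52 (exact p = 0.167, adjusted p = 0.400).

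Gpr3 (ENSMUSG00000049649), the receptor that keeps oocyte cAMP high, was the lowest of the 8. It measured 24.3, 11.9, 14.8, 15.9 and 17.0 in canagliflozin ovaries, 16.2, 25.2, 17.4, 13.3 and 16.5 in 12-month controls, and 24.6, 18.2, 16.6, 15.3 and 15.9 in 6-month controls. Behind these values stood 8 to 20 reads per canagliflozin library, 13 to 26 per 12-month control and 16 to 26 per 6-month control, and every group spanned much the same range. Its log2 fold changes lay between -0.12 and -0.04 with an SE of 0.24, and 2 SE either side of that for canagliflozin against 12-month controls ran from -0.56 to 0.39, so that a change within these bounds was not detectable at this depth.

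Pde3a (ENSMUSG00000041741), the phosphodiesterase that breaks down oocyte cAMP, measured 155, 200, 101, 149 and 195 in canagliflozin ovaries, 205, 219, 141, 246 and 159 in 12-month controls, and 161, 165, 195, 193 and 209 in 6-month controls. All 5 canagliflozin libraries were below the median of the 12-month controls, yet only replicate 3 was below all of them. The log2 fold change was -0.29 (SE 0.19, limma adjusted p = 0.640) for canagliflozin against 12-month controls, 0.05 for 12 against 6 months and -0.24 for canagliflozin against 6-month controls. Pde3a is also known from smooth muscle and fat cells, and summed smooth muscle and pericyte markers ran from 10836 to 19900 in canagliflozin ovaries, from 11112 to 17877 in 12-month controls and from 18156 to 23430 in 6-month controls. Their part in the Pde3a level was not tested.

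Gja1 (ENSMUSG00000050953), connexin 43, was by far the most abundant member. It measured 21076, 21035, 21539, 15424 and 17500 in canagliflozin ovaries, 17107, 17105, 21908, 15353 and 20011 in 12-month controls, and 13718, 12825, 9011, 13419 and 14129 in 6-month controls. Every library of either 12-month group was above every 6-month control, a separation that 13.7% of all genes tested showed between the control ages and 18.5% between canagliflozin and 6-month controls. The canagliflozin and 12-month control ranges lay over each other (log2 fold change 0.08, 2 SE either side -0.21 to 0.37). Its rise against 6-month controls was called in all 26 settings for canagliflozin and in 23 for the 12-month controls. Leaving out a library of the group not compared could not move either fold change, and the call was kept each time. The call between the control ages ended without 12-month control replicate 3 (adjusted p = 0.0588) or 5 (0.0508) or without 6-month control replicate 3 (0.0595). That 6-month library had the lowest value, 9011.

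Among the granulosa markers listed beside it, Inhba, a subunit of activin and inhibin, and Nr5a2, a nuclear receptor of granulosa and luteal cells, rose at 12 months, both named because they were called. Inhba measured 9043 ± 1764 at 12 months and 2519 ± 999 at 6 months (limma adjusted p = 0.00491) and Nr5a2 4874 ± 1105 and 2892 ± 578 (adjusted p = 0.0121). The other 11 of 13 granulosa markers did not pass, and the sum of all 13 was 39341 to 84442 in canagliflozin ovaries, 38507 to 77079 in 12-month controls and 24431 to 49766 in 6-month controls. Smooth muscle and pericytes also carry connexin 43, and 4 of their 10 markers, Myh11 and Cspg4 among them, fell at 12 months by limma while none rose. In canagliflozin against 6-month ovaries, where Nppc was called, 3 of 13 granulosa markers rose (Inhba, Nr5a2 and Fst), 2 fell (Amhr2 and Gatm), and 6 of 10 smooth muscle and pericyte markers fell. Of 9 corpus luteum markers 2 rose there (Prlr and Sfrp4) and 1 fell (Parm1), and their sum was 115392 to 286076 in canagliflozin and 124357 to 186910 in 6-month ovaries. Of all genes tested, 13.5% were called higher and 14.9% lower there, and 5.4% and 7.01% between the control ages. The part of any of these cells in the Gja1 and Nppc levels was not tested.

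The 250 bases before the Gja1 start are shown for comparison with those of Nppc, since both genes rose against 6-month controls (RefSeq, GRCm38.p6, chr10:56377050-56377299, plus strand, 5′ to 3′). Capitals mark an AP-1 site.
Gja1: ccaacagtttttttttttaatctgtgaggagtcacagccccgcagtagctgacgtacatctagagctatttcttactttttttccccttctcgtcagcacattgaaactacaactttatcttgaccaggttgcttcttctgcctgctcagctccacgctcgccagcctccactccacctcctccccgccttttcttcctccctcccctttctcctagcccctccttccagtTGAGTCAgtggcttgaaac
The AP-1 match began 19 bases before the start, and it was the only one of the 7 motifs found there, while the Nppc window held none of the AP-1 letters. No motif of the 7 was found in both windows. In the Nppc window 69.2% of bases were G or C.

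Gja4 (ENSMUSG00000050234), connexin 37, measured 161, 222, 273, 274 and 263 in canagliflozin ovaries, 180, 235, 279, 149 and 218 in 12-month controls, and 286, 281, 280, 252 and 301 in 6-month controls. The 6-month libraries were tightly grouped, with a coefficient of variation of 6.42%, against 20.3% in canagliflozin ovaries and 23.6% in 12-month controls. Of the 12-month controls 4 of 5 were below every 6-month control, and of the canagliflozin libraries 2 of 5 were. Connexin 37 is also an endothelial connexin. Of 12 endothelial markers, Vwf and Cdh5 fell at 12 against 6 months in control ovaries and 10 did not pass, with sums of 7711 to 9010 at 12 months and 8856 to 9450 at 6 months. Over all genes tested, 7.01% fell there. In canagliflozin ovaries the endothelial sum was 7521 to 12217. Its part in the Gja4 level was not tested.

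The ratio of Gja4 to Gja1 in the same library separated the ages, as Gja1 alone did and Gja4 alone did not. Of single genes tested, 13.7% did not overlap between the control ages and 18.5% between canagliflozin and 6-month controls. No such share was taken for ratios. Log2 of the ratio was -6.35 ± 0.47 in canagliflozin ovaries, -6.44 ± 0.20 in 12-month controls and -5.47 ± 0.27 in 6-month controls. No 12-month library of either kind reached the 6-month range. The difference was -0.97 between the control ages and -0.87 between canagliflozin and 6-month controls (exact two-sided permutation p = 0.00794 each, the smallest possible, adjusted p = 0.0317). Canagliflozin and 12-month controls differed by 0.10 (exact p = 0.690, adjusted p = 0.753), less than the SD within the canagliflozin group. Without 6-month control replicate 4 or 5 neither call remained (adjusted p = 0.0635 for each), and without replicate 1, 2 or 3 that of canagliflozin against 6-month controls did not (0.0635). The groups still did not overlap in any of these tests. Differences with age were -1.035 without replicate 4 and -0.989 without replicate 5. Those of canagliflozin against 6-month controls ran from -0.939 without replicate 4 to -0.758 without replicate 3. With 4 libraries against 5 fewer arrangements exist, so that p moves in coarser steps.

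**Figure D3:**
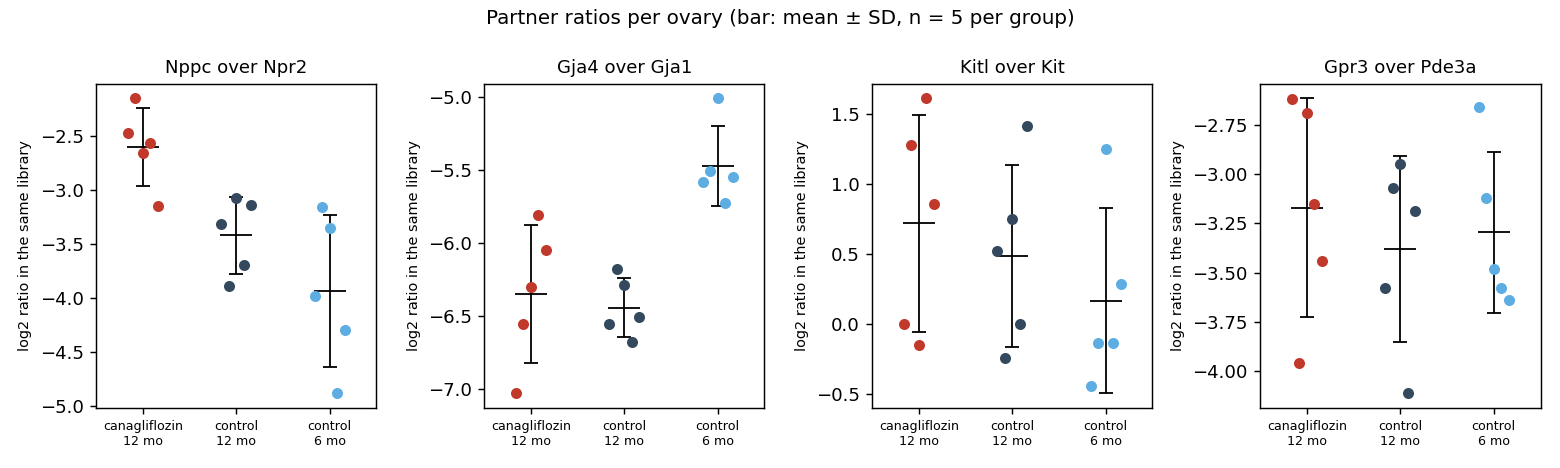
Log2 ratio of paired genes within each ovary library (y axis), by group, with a bar for the mean ± SD of 5 libraries. Nppc over Npr2 is highest in canagliflozin ovaries and Gja4 over Gja1 separates 6-month controls from both 12-month groups, while Kitl over Kit and Gpr3 over Pde3a overlap.

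Kitl (ENSMUSG00000019966), the granulosa ligand of KIT, measured 416, 678, 376, 782 and 628 in canagliflozin ovaries, 645, 480, 592, 699 and 679 in 12-month controls, and 506, 589, 887, 520 and 813 in 6-month controls. Canagliflozin libraries lay on both sides of the 12-month control range, with 2 below it and 1 above it. Log2 fold changes were -0.15, -0.07 and -0.22 for canagliflozin against 12-month controls, 12 against 6 months and canagliflozin against 6-month controls (SE 0.21 each). Without canagliflozin replicates 2 and 4 they were -0.41 (limma adjusted p = 0.512) against 12-month and -0.48 (adjusted p = 0.109) against 6-month controls. Replicates 2 and 4 were the canagliflozin libraries highest in Kitl, so that leaving them out made a larger fall certain. Leaving out 1 library gave -0.273 to -0.009 and -0.344 to -0.081 for these comparisons, and Kitl was called in neither.

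Kit (ENSMUSG00000005672), the receptor tyrosine kinase, measured 416, 279, 417, 255 and 345 in canagliflozin ovaries, 450, 569, 351, 698 and 255 in 12-month controls, and 688, 642, 372, 569 and 665 in 6-month controls. The 12-month controls spread over almost the whole range of all libraries. Of the canagliflozin libraries 3 of 5 were below every 6-month control and all 5 below the 6-month median. Its fall in canagliflozin against 6-month ovaries was called in 17 of 26 settings. Those that leave out a 12-month control, a group not compared here, could not move the fold change and all kept the call. The call ended without canagliflozin replicate 2 (adjusted p = 0.0610) or 4 (0.0728), and without 6-month control replicate 1 (0.0673), 2 (0.0637), 4 (0.0509) or 5 (0.0651). Without canagliflozin replicates 2 and 4 together, the libraries lowest in oocyte markers, the log2 fold change was -0.55 (adjusted p = 0.168). Replicates 2 and 4 were also the canagliflozin libraries lowest in Kit itself, so that leaving them out made a smaller fall certain. With the oocyte score as a covariate the log2 fold change was -0.69, beside -0.77 without it, and the limma adjusted p was 0.0621. Whether oocyte content accounts for the fall was not tested. Between canagliflozin and 12-month controls the log2 fold change was -0.38 (SE 0.25) and without both libraries -0.16 (SE 0.28).

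Of 8 theca markers 3 fell in canagliflozin against 6-month ovaries and none rose by limma (median log2 fold change -0.52). Among them Aldh1a1 measured 11440 ± 2458 in canagliflozin and 20628 ± 2609 in 6-month ovaries (adjusted p = 0.00143) and Nr2f2 1488 ± 293 and 2406 ± 235 (adjusted p = 0.000698). The sum of the 8, of which Cyp11a1 was the largest part, was 53492 to 144423 in canagliflozin ovaries, 86313 to 133341 in 12-month controls and 81842 to 124486 in 6-month controls. Over all genes tested, 14.9% fell in canagliflozin against 6-month ovaries. The part of theca cells in the Kit level was not tested.

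KIT is also carried by mast cells. Of 10 mast cell markers 5 were listed and only Hdc passed the filter, while the other 4 included a 0 in some library and reached at most 6.94 for Fcer1a, 11.9 for Ms4a2, 8.92 for Mrgprb1 and 39.65 for Tpsab1. Tpsab1 averaged 10.6 ± 16.3 in canagliflozin ovaries and 2.08 ± 2.11 in 6-month controls, and Hdc 303.5 ± 89.5 and 219 ± 84.0 (adjusted p = 0.207). The part of mast cells in the Kit level was not tested. The 250 bases before the first Kit start in RefSeq are shown as those of the member that fell (GRCm38.p6, chr5:75574737-75574986, plus strand, 5′ to 3′). Capitals mark a GC box, which began 98 bases before the start.
Kit: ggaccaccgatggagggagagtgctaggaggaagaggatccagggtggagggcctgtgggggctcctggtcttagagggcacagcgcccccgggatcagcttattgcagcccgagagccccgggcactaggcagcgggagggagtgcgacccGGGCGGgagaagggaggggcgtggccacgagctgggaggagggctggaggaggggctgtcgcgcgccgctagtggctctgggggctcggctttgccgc
The window held none of the other 6 motifs, and 70.8% of its bases were G or C. Of the 8 members 7 had a RefSeq window, all but Pde3a, and GGGCGG was found in 5 of them (Nppc, Gpr3, Gja4, Kitl and Kit), TATAAA in Nppc and Kitl, and CCAAT in Nppc and Gpr3.

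As log2 ratios in the same library, Kitl over Kit was 0.72 ± 0.78 in canagliflozin ovaries, 0.49 ± 0.65 in 12-month controls and 0.17 ± 0.66 in 6-month controls. No pair of groups was distinguishable (exact two-sided permutation p = 0.587, 0.437 and 0.238 for canagliflozin against 12-month controls, 12 against 6 months and canagliflozin against 6-month controls, n = 5 each). Gpr3 over Pde3a was -3.17 ± 0.56, -3.38 ± 0.47 and -3.30 ± 0.41 in the same order of groups, with exact p from 0.524 to 0.786.

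Members that oocytes express were also read against the oocyte score of their own library. Relative to it, Kit was 1.32 ± 0.27 in canagliflozin ovaries, 1.40 ± 0.68 in 12-month controls and 1.81 ± 0.46 in 6-month controls on the log2 scale. For canagliflozin against 6-month controls this was a difference of -0.49 (exact two-sided permutation p = 0.0952, adjusted p = 0.571 over 4 members in 3 comparisons). Gja4 relative to the score differed by -0.45 between 12-month and 6-month controls (exact p = 0.0556, adjusted p = 0.571). None of the 12 differences for Gpr3, Pde3a, Kit and Gja4 passed, with adjusted p from 0.571 to 0.976. After removing group means, these members had Pearson r of 0.274, -0.139, 0.253 and 0.061 with the score, in that order. Values relative to the score also carry the spread of the score itself.

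Levels of different genes were compared as normalised reads per kb of merged exons, with lengths from GENCODE M21. In canagliflozin ovaries Gja1 averaged 1883, Npr2 302, Nppc 225, Gja4 142, Kitl 97.4, Kit 38.4, Pde3a 12.5 and Gpr3 6.14 per kb. Neighbours from Npr2 down to Kitl overlapped in their library ranges, Kit stood below Kitl without overlap, and Pde3a and Gpr3 overlapped. In 12-month controls the order was the same, at 1784, 320, 135, 126, 105, 52.1, 15.3 and 6.49 per kb, and there Npr2 stood clear of Nppc. In 6-month controls Gja4 at 166 and Kitl at 112 per kb were above Nppc at 93.5, with Gja1 at 1230, Npr2 at 304, Kit at 65.9, Pde3a at 14.5 and Gpr3 at 6.62 per kb. Gja4 and Nppc did not overlap at 6 months (149 to 179 and 48.0 to 138 per kb) and overlapped in both 12-month groups. With the longest coding transcript as the length, Gja1 reached 6070 per kb in canagliflozin ovaries and Kit came above Nppc in 6-month controls (112 and 93.5 per kb).

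**Figure D4:**
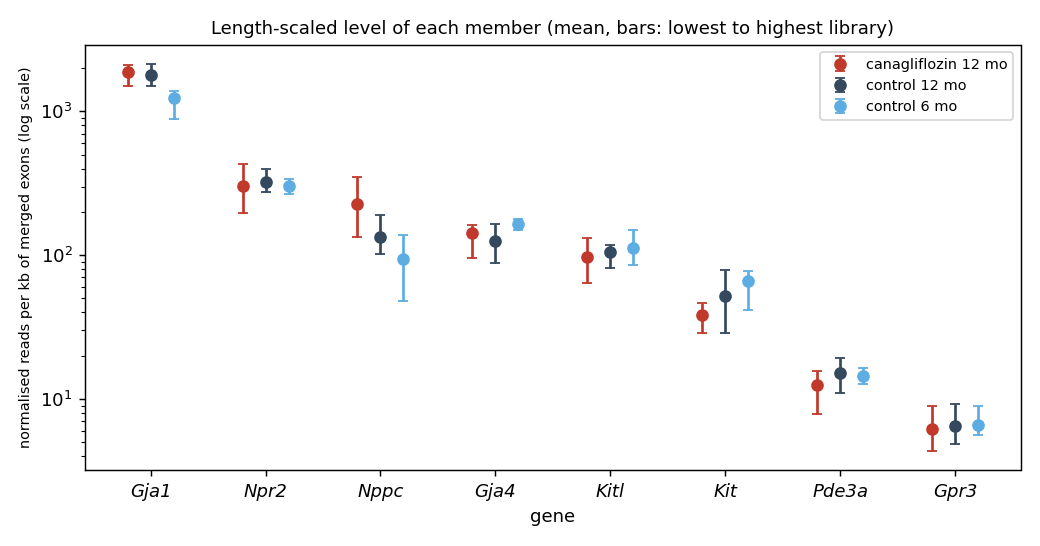
Normalised reads per kb of merged exons on a log axis (y axis) for each member, ordered by the mean of all 15 libraries, with the group mean as a point and bars from the lowest to the highest library. Gja1 lies highest and Gpr3 lowest in each group, and Nppc changes place with Gja4 between 6-month controls and canagliflozin ovaries.

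Variation between mice of the same group was compared with marker scores after removing group means, over 15 libraries and 28 relations. Nppc went with the granulosa score (Pearson r = 0.776, permutation p = 0.00155, adjusted p = 0.0434). By rank the relation was Spearman rho = 0.711 (permutation p = 0.00576, adjusted p = 0.161), and without the 2 libraries farthest from the median score r was 0.603. Over the other 27 relations no adjusted permutation p for r was under 0.154. Npr2 had r = 0.613 with the granulosa score (rho = 0.589) and -0.739 with the endothelial score (rho = -0.618), with adjusted permutation p of 0.154 for both r and 0.174 for both rho, and r was 0.696 and -0.754 without the 2 farthest libraries. Pde3a had r = -0.631 with the granulosa score (rho = -0.589, adjusted permutation p = 0.154 and 0.174; r = -0.796 without 2 libraries). Gja1 had r = 0.354 with the granulosa score (rho = 0.571, adjusted permutation p = 0.413 and 0.174; r = 0.479 without 2 libraries). Kitl had r = 0.693 with the endothelial score (rho = 0.596, adjusted permutation p = 0.154 and 0.209; r = 0.628 without 2 libraries). Kitl and Kit, ligand and receptor, had r = -0.525 with each other (rho = -0.543, permutation p = 0.0324 and 0.0358, adjusted p = 0.154 and 0.174; r = -0.435 without 2 libraries). None of the 8 members had an adjusted permutation p under 0.05 with the oocyte score, where r ran from -0.489 for Kitl to 0.572 for Npr2. Both measures of a point come from the same library and share its size factor.

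**Figure D5:**
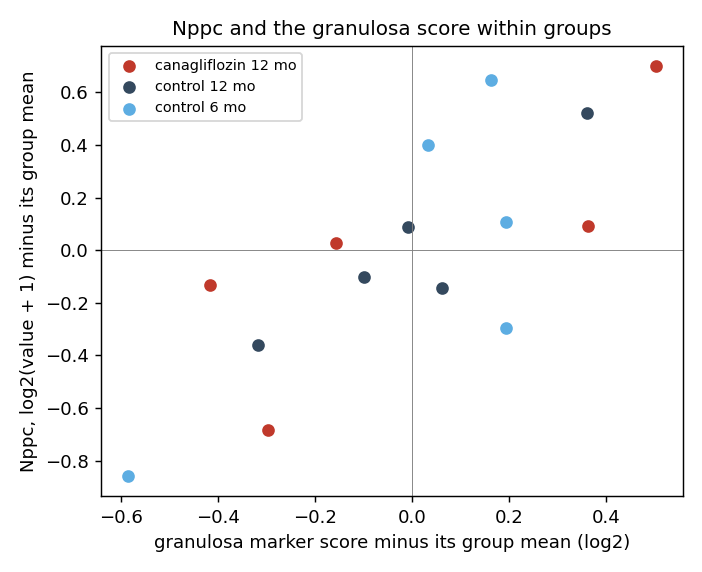
Nppc as log2(value + 1) minus its group mean (y axis) against the granulosa marker score minus its group mean (x axis, log2), 1 point per library, coloured by group. Points run from lower left to upper right (r = 0.776 over 15 libraries), with the lowest point a 6-month control and the highest a canagliflozin library.

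By profile over the 15 libraries, among 12105 genes with a mean value of at least 50 and a named symbol, the genes most like Nppc were Med19, a Mediator subunit, Supt4a, a transcription elongation factor, and Cwf19l2 (Pearson r of log2 values 0.963, 0.943 and 0.943). Those most like Gja1 were Bmpr1b, a receptor for bone morphogenetic proteins, Colgalt2 and Greb1l (0.947, 0.919 and 0.905). For Kit they were Rras2, Sptb and Kdm1a (0.932, 0.909 and 0.900) and for Npr2 Utp14a, Lnx1 and Dkc1 (0.919, 0.893 and 0.893). Pde3a was most like Desi2, Spred1 and Lrrc58 (0.912, 0.907 and 0.903), Gja4 most like Plin3, Cyfip2 and Gys1 (0.861, 0.852 and 0.802), Gpr3 most like Ncaph, Ruvbl1 and Tbl3 (0.855, 0.826 and 0.812), and Kitl most like Naaladl2, Rnf41 and Ctsd (0.789, 0.785 and 0.758). No member was among the 3 nearest of another. These likenesses are descriptions, picked as the highest of many, over libraries that share depth and group.

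Around the ligand and receptor, 14 of 16 other natriuretic peptide and cGMP genes were tested. Between 12-month and 6-month controls 1 rose, 3 fell and 10 did not pass, with a list median log2 fold change of -0.14 beside 0.00 over all genes. Npr1, the receptor for the atrial peptide, measured 1868 ± 196 at 12 months and 2887 ± 490 at 6 months (adjusted p = 0.00505). Furin, a protease that processes natriuretic peptide precursors, measured 1815 ± 197 and 2470 ± 136 (adjusted p = 0.00975), and Impdh2, an enzyme of guanine nucleotide synthesis, 422 ± 58.6 and 536 ± 29.7 (adjusted p = 0.0226). Pde10a, a phosphodiesterase, rose, at 288 ± 49.5 and 195 ± 20.9 (adjusted p = 0.0138). In canagliflozin against 6-month ovaries 1 rose, 5 fell and 8 did not pass (median -0.37, against 0.01 over all genes). Of all genes tested, 28.4% were called there and 12.4% between the control ages. Smallest in p were Impdh2 at 389 ± 31.3 (adjusted p = 0.00217), Pde10a at 276 ± 34.4 (0.0119), Furin at 1939 ± 278 (0.0166) and Impdh1 at 867 ± 188 against 1183 ± 175 (0.0344). Between canagliflozin and 12-month controls 0 of 14 passed by limma, edgeR or DESeq2 and 1 had an unadjusted limma p under 0.05 (median -0.10). Smallest in p were the soluble guanylyl cyclase subunits Gucy1b1 (224 ± 35.98 against 279 ± 28.9, unadjusted p = 0.0457, adjusted p = 0.538) and Gucy1a1 (681 ± 161 against 832 ± 129, adjusted p = 0.557).

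Around GPR3 and PDE3A, 21 of 22 genes of oocyte cAMP and cell cycle arrest were tested. At 12 against 6 months 1 rose, 5 fell and 15 did not pass (median -0.11). The adenylyl cyclases Adcy9 (426 ± 167 at 12 months and 926 ± 212 at 6 months, log2 fold change -1.19, adjusted p = 0.0104) and Adcy3, the form used in mouse oocytes (537 ± 85.5 and 759 ± 82.3, adjusted p = 0.0126), fell. So did Fzr1, an activator of the anaphase-promoting complex (625.4 ± 46.8 and 846 ± 60.6, adjusted p = 0.00592), and the phosphatase gene Cdc25b (235 ± 22.2 and 324 ± 61.4, adjusted p = 0.0256). Canagliflozin against 6-month ovaries gave the same counts (median -0.10), where 28.4% of all genes tested were called, against 12.4% between the control ages. Smallest in p were Fzr1 at 596 ± 68.8 (adjusted p = 0.000898), Adcy3 at 486 ± 59.5 (0.00125), Adcy9 at 353 ± 87.3 (0.00171) and Wee1, a kinase that restrains CDK1, at 154 ± 65.1 against 269 ± 28.02 (0.00421). None of the 21 passed by limma, edgeR or DESeq2 between canagliflozin and 12-month controls, and 0 had an unadjusted limma p under 0.05 (median -0.07). There Gnas, the stimulatory G protein, had 15692 ± 2207 against 13505 ± 792 (unadjusted p = 0.0769, adjusted p = 0.569) and Prkacb, a catalytic subunit of protein kinase A, 953 ± 208 against 1110 ± 125 (adjusted p = 0.591). The genes of this list were measured in whole ovaries, and which cells carried the falls was not tested. Of 13 oocyte markers 0 were called between the control ages, and 1 fell in canagliflozin against 6-month ovaries.

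Of the signals that end the arrest, 9 of 12 LH and EGF-like genes were tested, since Areg, Ptgs2 and Has2 did not pass the filter or were not analysed here. Egfr, the receptor for these ligands, fell in canagliflozin against 6-month ovaries (601 ± 82.3 against 804 ± 67.7, adjusted p = 0.0127) and 8 did not pass (median -0.03). None passed by limma, edgeR or DESeq2 in the other comparisons, where 2 had an unadjusted limma p under 0.05 for canagliflozin against 12-month controls (median -0.17) and 1 for 12 against 6 months (median -0.05). For canagliflozin against 12-month controls, Egfr had 601 ± 82.3 against 781 ± 108 (unadjusted p = 0.00504, adjusted p = 0.462) and Pgr, the progesterone receptor, 12.7 ± 4.30 against 24.5 ± 5.94 (unadjusted p = 0.0208, adjusted p = 0.482). Between 12-month and 6-month controls Pgr had 24.5 ± 5.94 and 13.3 ± 5.94 (unadjusted p = 0.0182, adjusted p = 0.0989). Of all genes tested, 12.4% were called there, and 28.4% between canagliflozin and 6-month controls.

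Of the other connexins and contact proteins 12 of 21 were tested. Myo10, a motor of the fine projections that granulosa cells send to the oocyte, fell at 12 against 6 months (1678 ± 261 and 2306 ± 142, adjusted p = 0.00932) and in canagliflozin against 6-month ovaries (1366 ± 138, adjusted p = 0.000177). Ctnnb1, beta-catenin, fell in the second of these comparisons (6846 ± 1380 against 9362 ± 619, adjusted p = 0.0163). None of the 12 rose by limma, and list medians were -0.10 between the control ages and -0.12 for canagliflozin against 6-month controls. In canagliflozin against 6-month ovaries 3 of the 12 fell by limma, where 14.9% of all genes tested fell and 28.4% were called. DESeq2 called 3 of the 12 between the control ages, where limma and edgeR called 1. Over all 17569 genes tested, DESeq2 called 2960 there and limma 2179 (12.4%). Between canagliflozin and 12-month controls 0 of 12 passed by limma, edgeR or DESeq2 and 1 had an unadjusted limma p under 0.05 (median -0.06), and Myo10 was smallest in p at 1366 ± 138 against 1678 ± 261 (unadjusted p = 0.0161, adjusted p = 0.473), followed by Panx1 (193 ± 38.7 against 216 ± 30.6, adjusted p = 0.705).

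Downstream of KIT all 22 genes were tested. At 12 against 6 months 2 rose, 4 fell and 16 did not pass (median -0.15). Tsc2, a brake on mTOR (1096 ± 75.4 and 1529 ± 58.8, adjusted p = 0.00109), the PI3 kinase subunit Pik3r2 (1057 ± 59.7 and 1473 ± 180, adjusted p = 0.00271) and the adaptor Gab1 (503 ± 51.4 and 717 ± 98.6, adjusted p = 0.00875) fell, while the S6 kinase Rps6kb1 rose (691 ± 66.5 and 550 ± 37.1, adjusted p = 0.0202). In canagliflozin against 6-month ovaries 3 rose, 8 fell and 11 did not pass (median -0.24), led by Tsc2 (1108 ± 94.8, adjusted p = 0.000472), Pik3r2 (1022 ± 65.7, 0.000538), the adaptor Gab2 (1267 ± 148 against 2079 ± 317, 0.00114) and Gab1 (476 ± 59.4, 0.00148). None passed by limma, edgeR or DESeq2 between canagliflozin and 12-month controls, where 3 had an unadjusted limma p under 0.05 (median -0.07) and Gab2 (1267 ± 148 against 1611 ± 265, adjusted p = 0.482) was smallest in p. Over all genes tested, 12.4% were called between the control ages and 28.4% between canagliflozin and 6-month controls.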

How the data were processed

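RNA was measured by directional sequencing of polyadenylated RNA from whole ovaries, 1 ovary per mouse, per the labels' protocols. The submitters' processing notes name Partek 11.0 and the mm39 build. How reads were aligned, counted and normalised is not given in the sources used here. From its values, the deposited table holds a signal per gene and library that is the authors' reads divided by 1 size factor. Whole reads were recovered within 0.1 of a read for at least 99.991% of values above 0 in every library. For 3 libraries (canagliflozin replicates 4 and 5 and 6-month control replicate 5) 1 read is worth so nearly 1 that low values alone cannot show the factor. Higher values there are not whole, such as Kit at 254.8, 345.3 and 665.2 in that order. Per the labels the depth was much smaller than these totals, which was not resolved. Every pair of libraries within a group differed by more than counting noise. The labels name no batch.

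All 15 libraries entered 1 fit with limma 3.58.1 (R 4.3.3, trend and robust) on log2(value + 1), which understates changes of low genes. The filter kept genes reaching 10 in 5 or more libraries, and a call is a Benjamini-Hochberg adjusted p under 0.05 over all of them. Alternatives were edgeR 4.0.16 and DESeq2 1.42.0 on the recovered reads, pseudocounts of 0.5 and 5, other filters, only the groups compared, a replicate block, the oocyte score as a covariate and each library left out. Leaving out canagliflozin replicates 2 and 4 together was chosen after seeing the data. Ratios were compared by exact permutation tests and relations by 100000 permutations within groups. The fit was tested on simulated data. Genes of the lists were named by rule: the called ones smallest in p, at most 4 for each list and comparison, or 2 where none was called. Some genes this rule names are not reported here. Promoter sequences and gene lengths are of GRCm38 annotations, matched by symbol or identifier, a build other than the one in the notes. The members and lists were chosen with earlier results of these data known.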

Additional observations from a re-analysis of the deposited data

Results flagged for a closer look

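Among 48 sets of 5 values checked (8 members and 8 ratios in 3 groups), 1 library stood apart from the rest of its group. Gja1 in 6-month control replicate 3 was 9011, and the nearest library of that group had 12825, a gap of 0.745 of the group's range where 0.710 is the limit. Chance flags about 1 in 20 such sets. Without that library the rise of Gja1 between 6 and 12 months was no longer called (adjusted p = 0.0595), while its rise in canagliflozin against 6-month ovaries was (adjusted p = 0.0134).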

How the results depend on the processing

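Of the calls of members, Nppc and Gja1 in canagliflozin against 6-month ovaries held in all settings, and those of Kit and of Gja1 with age are limited as given above. Between canagliflozin and 12-month controls no member was called in any setting, while the count of called genes, 1 with all libraries, was 2 with no filter, 0 with only the groups compared, 3 with a replicate block, 9 with edgeR, 63 with DESeq2, 0 with the oocyte score as covariate, 0 without canagliflozin replicates 2 and 4 and 0 to 37 when 1 library was left out, with the 37 without canagliflozin replicate 5. Gpr3 has no value under the stricter filter of 50, which it did not pass. Between the control ages 0 to 1 members were called when 1 library was left out. Replicate numbers did not pair the mice: correlations of same-numbered deviations ran from -0.298 to 0.249. The replicate block gave 2126 calls with age, against 2179 without it, and 4912 for canagliflozin against 6-month controls, against 4982, and ended the call of Kit (adjusted p = 0.0502). For ratios, sign flips within replicate number gave 1.33 for Nppc over Npr2 in canagliflozin against 6-month controls and -0.97 and -0.87 for Gja4 over Gja1 with age and for canagliflozin against 6-month controls, each at p = 0.0625, the smallest 5 pairs allow (exact).

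Leaving out 1 library gave differences from 1.10 to 1.53 for Nppc over Npr2 in canagliflozin against 6-month controls and 0.70 to 0.96 against 12-month controls, and for Gja4 over Gja1 from -1.01 to -0.70 in canagliflozin against 6-month controls, -1.04 to -0.85 with age and -0.038 to 0.266 in canagliflozin against 12-month controls. Differences near 0 changed sign without 1 library. For canagliflozin against 12-month controls these were Npr2 (-0.259 to 0.027), Gpr3 (-0.219 to 0.046), Gja4 over Gja1 (as given), Pde3a relative to the oocyte score (-0.21 to 0.24) and Kit relative to it (-0.29 to 0.13). With age they were Kitl (-0.159 to 0.043), Npr2 (-0.016 to 0.12), Pde3a (-0.044 to 0.155), Gpr3 (-0.164 to 0.075), Gpr3 over Pde3a (-0.19 to 0.10), Pde3a relative to the score (-0.10 to 0.19) and Gpr3 relative to it (-0.20 to 0.14). For canagliflozin against 6-month controls they were Npr2 (-0.193 to 0.093), Gpr3 over Pde3a (-0.014 to 0.32), Pde3a relative to the score (-0.18 to 0.27) and Gja4 relative to it (-0.19 to 0.26). With the oocyte score as covariate Npr2 was 0.012 in canagliflozin against 12-month and 0.07 against 6-month controls. Without canagliflozin replicates 2 and 4 it was 0.079 and 0.145, and Gpr3 0.073 and 0.037. The cause was not tested.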
